A study of Mus musculus with 6 samples.

Results

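The LC3 and GABARAP genes, the mammalian ATG8 family, were described in the newborn mouse lens through Map1lc3a, Map1lc3b, Gabarap, Gabarapl1 and Gabarapl2. These 5 members were taken by symbol from a table of 22298 entries; each had 1 entry, and all 5 passed the filter on low values. RNA was taken from ocular lenses of C57BL/6 mice at postnatal day 0 (P0), in 3 wild-type (WT) libraries and 3 libraries labelled Fyco1-/-, named A, B and C in each genotype. Each library came from its own pool of 10 lenses and is called a biological replicate in the labels. How the Fyco1 allele was made, and whether it acts outside the lens, is not given in the sources used here. Levels are FPKM, fragments corrected for gene length and for the size of the library. A comparison of levels between genes depends on the length used for each gene.

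ATG8 proteins are small ubiquitin-like proteins that are attached to the lipid of autophagosome membranes, the double membranes that enclose cell contents for delivery to lysosomes. On the membrane they bind cargo receptors on the inner face and transport and tethering proteins on the outer face. FYCO1 is one of the outer partners: it binds LC3 and Rab7 and links autophagosomes to kinesin motors. The lens is a tissue of epithelium and fibre cells, and maturing fibre cells lose their nuclei and other organelles.

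Every ATG8 protein is made as a precursor, cut by an ATG4 protease after a glycine near its C-terminus, and joined to lipid through that glycine. The ends of 4 coding sequences, stop codon included, are shown because this glycine is the site through which the family acts. They were read 5′ to 3′ from GENCODE M21 transcripts (GRCm38), with the glycine codon in capitals.
Map1lc3a: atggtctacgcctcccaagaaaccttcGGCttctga
Gabarap: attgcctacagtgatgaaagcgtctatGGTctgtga
Gabarapl1: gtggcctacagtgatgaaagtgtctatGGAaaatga
Gabarapl2: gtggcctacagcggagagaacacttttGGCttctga
The glycine is codon 116 of 117 in Gabarap, Gabarapl1 and Gabarapl2, and codon 120 of 121 in Map1lc3a, so 1 codon is removed. Over whole coding sequences, Gabarap and Gabarapl1 were 74.9% identical and Map1lc3a and Map1lc3b 77.5%, against 57.4% to 64.9% for the other pairs. The longest run of identical bases between any pair of members was 17, in Gabarap and Gabarapl1, well under the read length of 100 bases.

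All 5 genes lie on the plus strand of GRCm38 in GENCODE M21. Map1lc3a (ENSMUSG00000027602) is on chromosome 2 from 155276297 to 155278073, and Map1lc3b (ENSMUSG00000031812) on chromosome 8 from 121590361 to 121598760. Gabarap (ENSMUSG00000018567) is on chromosome 11 from 69991143 to 69994951, and Gabarapl1 (ENSMUSG00000030161) on chromosome 6 from 129533160 to 129542346. Gabarapl2 (ENSMUSG00000031950) is on chromosome 8 from 111940703 to 111953612, and thus shares a chromosome with Map1lc3b without adjoining it.

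Scaling totals recovered from the FPKM steps ran from 17097301 fragments (WT A) to 20080266 (WT B), with the 3 libraries labelled Fyco1-/- between them. Fyco1 itself (chromosome 9, minus strand, 123789500 to 123851899) stood at 5.40, 5.21 and 5.11 FPKM in WT and at 4.61, 4.59 and 4.87 FPKM in the libraries labelled Fyco1-/-. The groups did not overlap, but the log2 difference of -0.15 (SE 0.08) did not pass the test (limma, adjusted p = 0.273). The position of the deleted part is not given in the sources used here, so a value over the whole gene cannot check the label. Of 12001 genes tested with limma, 1012 were called at an adjusted p under 0.05 (8.43%), of which 410 were higher (3.42%) and 602 lower (5.02%) in the libraries labelled Fyco1-/-. Higher genes were thus 40.5% of the calls, and 57% with median-of-ratios scaling. The groups did not overlap in 3560 of those genes (29.7%).

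One of the 5 members, Gabarapl1, rose in the libraries labelled Fyco1-/-, and the other 4 did not pass the test. GABARAPL1 belongs to the GABARAP branch of the family and is the closest relative of GABARAP. The level of Gabarapl1 was 104.9, 105.4 and 104.9 FPKM in the WT libraries and 132.1, 126.1 and 136.6 FPKM in those labelled Fyco1-/-. Every library labelled Fyco1-/- stood above every WT library, and the WT values lay closer together than the others. The mean went from 105 ± 0.273 to 132 ± 5.24 FPKM (SD, n = 3 each), a ratio of 1.25. The log2 difference was 0.32 (SE 0.04, 95% interval 0.23 to 0.41), which is a ratio of 1.18 to 1.33 (limma, adjusted p = 0.00083). Among the tested genes it ranked 140 by p. The authors' deposited table gives a log2 fold change of 0.365 and an adjusted p of 4.93e-10 for Gabarapl1. The exact permutation test of 3 against 3 libraries gave p = 0.1, the smallest that this design allows.

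Gabarap, first found as the protein that links GABA-A receptors to microtubules, stood at 69.5, 70.6 and 65.9 FPKM in WT and 67.7, 71.8 and 66.6 FPKM in the libraries labelled Fyco1-/-. The groups overlapped over most of their range, and the means were 68.7 ± 2.47 and 68.7 ± 2.74 FPKM (SD, n = 3 each). The interval of the log2 difference ran from -0.10 to 0.10 (limma, adjusted p = 0.996).

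Gabarapl2, also known as GATE-16 for its part in traffic through the Golgi, stood at 22.1, 23.2 and 22.6 FPKM in WT and 22.8, 23.4 and 22.1 FPKM in the libraries labelled Fyco1-/-. The lowest value of both groups was 22.1 FPKM. The log2 difference was 0.01 with an interval of -0.11 to 0.12 (limma, adjusted p = 0.955).

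Map1lc3b, whose lipid-bound protein LC3B is the usual marker of autophagosomes, stood at 15.0, 14.9 and 14.9 FPKM in WT and 15.5, 15.0 and 14.8 FPKM in the libraries labelled Fyco1-/-. The WT values fell inside the range of the others. The log2 difference was 0.01 with an interval of -0.11 to 0.14 (limma, adjusted p = 0.899).

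Map1lc3a, the other LC3 gene, was the only member with a lower mean, at 11.3, 11.3 and 10.1 FPKM in WT and 9.45, 10.5 and 10.03 FPKM in the libraries labelled Fyco1-/-. WT C lay among the libraries labelled Fyco1-/-, so the groups overlapped. The log2 difference was -0.12 (SE 0.07) with an interval of -0.28 to 0.04 (limma, unadjusted p = 0.137, adjusted p = 0.359), the smallest p of the 4. The intervals of all 4 uncalled members lay below the lower bound of 0.23 found for Gabarapl1. The authors' deposited table also called none of these 4, with log2 fold changes of -0.061 to 0.062 and adjusted p of 0.709 to 0.869.

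**Figure D1:**
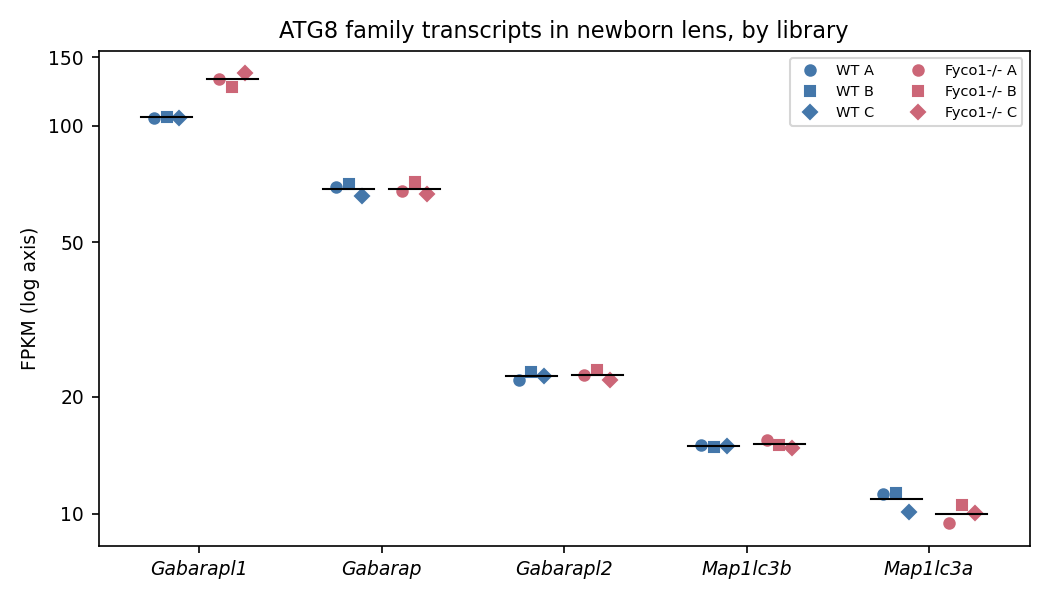
Level of each ATG8 family gene in FPKM, on a log axis, with 1 point per library and a bar at the mean of each genotype (n = 3). Gabarapl1 is the member whose libraries labelled Fyco1-/- (126.1 to 136.6 FPKM) all stand above WT (104.9 to 105.4 FPKM).

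**Figure D2:**
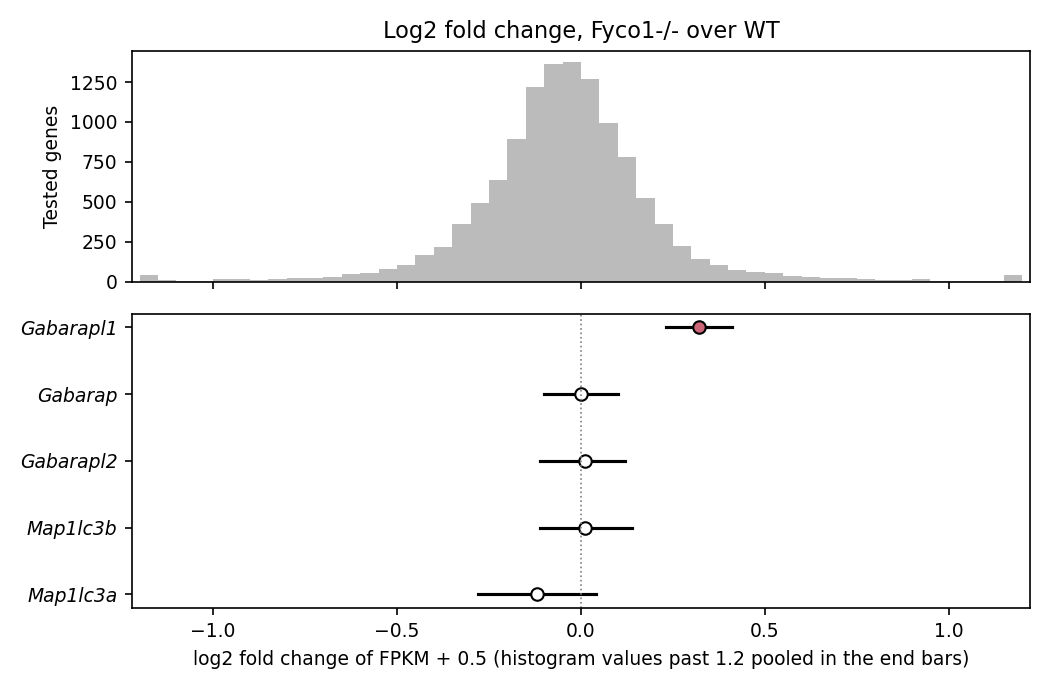
Log2 fold change of each member, libraries labelled Fyco1-/- over WT, with its 95% interval from limma. The interval of Gabarapl1 runs from 0.23 to 0.41, and those of the other 4 members hold 0.

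The fragments behind these values set how finely each gene was measured. Gabarapl1 rested on 3165 to 3735 fragments in WT and 4347 to 4581 in the libraries labelled Fyco1-/-, so counting alone gives a coefficient of variation (CV, SD as a percent of the mean) of 1.72% and 1.5%. The CV observed was 0.259% in WT and 3.98% in the libraries labelled Fyco1-/-. The WT spread was thus below counting error and the other above it. Map1lc3b in WT likewise spread by 0.365%, where counting gives 2.99%. Map1lc3a rested on the fewest fragments, 195 to 253 in WT, where counting gives 6.76% and 6.5% was observed. In simulated data for this comparison over 12001 genes, 18% of 1.25-fold changes were recovered. The changed genes were drawn from all tested genes and were fewer than those called in the data. The 18% is therefore not the recovery for these members.

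As a family, the ATG8 genes summed to 222.8, 225.4 and 218.5 FPKM in WT and 247.5, 246.9 and 250 FPKM in the libraries labelled Fyco1-/-. The groups did not overlap, and the ratio of the means (222 ± 3.5 and 248 ± 1.67 FPKM, SD, n = 3 each) was 1.12. Without Gabarapl1 the sums were 117 ± 3.31 and 117 ± 3.77 FPKM, a ratio of 0.995, so the total without Gabarapl1 differed by less than its SD.

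Gabarapl1 made up 47.1%, 46.8% and 48.0% of the ATG8 total in WT and 53.4%, 51.1% and 54.6% in the libraries labelled Fyco1-/-. Its mean share went from 47.3% ± 0.67 to 53.0% ± 1.8 (SD, n = 3 each), a difference of 5.7 percentage points. Gabarap held 31.2%, 31.3% and 30.2% in WT and 27.4%, 29.1% and 26.6% in the libraries labelled Fyco1-/-, a mean difference of -3.2 points. The shares of Gabarapl2 (10.2% to 9.2%), Map1lc3b (6.7% to 6.1%) and Map1lc3a (4.9% to 4.0%) were lower as well. Shares of 1 total are tied, so the share of a member can be lower while its level is the same. The GABARAP branch as a whole held 88.4% of the total in WT and 89.9% in the libraries labelled Fyco1-/-, and the LC3 branch 11.6% ± 0.16 and 10.1% ± 0.21.

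**Figure D3:**
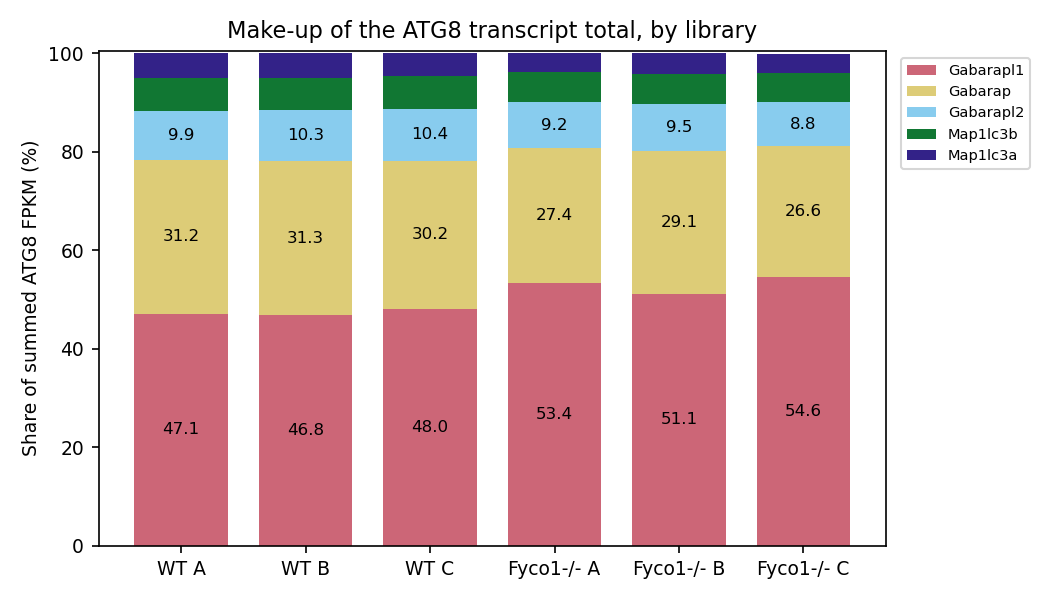
Share of each member in the summed FPKM of the 5 ATG8 family genes, in percent, stacked for each of the 6 libraries. The share of Gabarapl1 runs from 46.8% to 48.0% in WT and from 51.1% to 54.6% in the libraries labelled Fyco1-/-.

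Ratios within a library do not depend on its scaling. Gabarapl1 stood at 1.51, 1.49 and 1.59 times Gabarap in WT and at 1.95, 1.76 and 2.05 times in the libraries labelled Fyco1-/-, with no overlap. Its mean ratio went from 4.64 to 5.79 against Gabarapl2, from 7.04 to 8.72 against Map1lc3b and from 9.68 to 13.2 against Map1lc3a. The log2 ratio of Gabarapl1 to the sum of the other 4 was higher by 0.33 (exact permutation p = 0.1, two-sided, the smallest possible; 0.1 after Benjamini-Hochberg adjustment over 5 ratios). The same ratio was lower for Map1lc3a (-0.30), Gabarap (-0.22), Gabarapl2 (-0.17) and Map1lc3b (-0.15), each against a sum that holds Gabarapl1. Among the 4 others alone, Gabarap held 58.6% and 58.9%, Gabarapl2 19.4% and 19.5%, and Map1lc3b 12.8% and 13% of their sum in WT and in the libraries labelled Fyco1-/-. Map1lc3a held 9.5%, 9.4% and 8.9% in WT and 8.2%, 8.7% and 8.8% in the libraries labelled Fyco1-/-. It was the only 1 of these 4 shares whose groups did not overlap, by the narrow gap of WT C (8.9%) and Fyco1-/- C (8.8%). Counting alone gives Map1lc3a a CV of 6.76% in WT, and 29.7% of all tested genes had levels without overlap.

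The order of the FPKM levels, from high to low, was Gabarapl1, Gabarap, Gabarapl2, Map1lc3b and Map1lc3a in 6 of 6 libraries. Within a library, Gabarapl1 was 1.49 to 2.05 times Gabarap, and Gabarap was 2.91 to 3.14 times Gabarapl2. Gabarapl2 was 1.47 to 1.56 times Map1lc3b, and Map1lc3b was 1.31 to 1.64 times Map1lc3a. No neighbours in this order overlapped in their ranges over the libraries. Gabarapl1 lay at percentile 97.7 of the levels of tested genes, Gabarap at 95.9, Gabarapl2 at 87.7, Map1lc3b at 81.8 and Map1lc3a at 74.

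The place of Map1lc3b in that order depends on the gene length behind its FPKM. The smallest length at which its 6 values are whole fragments is 4138 bases, which in GENCODE M21 is that of a transcript with a retained intron, Map1lc3b-202. Its coding transcript has 2532 bases. The lengths recovered for Map1lc3a (1112), Gabarap (1351) and Gabarapl2 (1677) are those of their coding transcripts, and that of Gabarapl1 (1765) is close to its coding transcript of 1820 bases. With coding transcript lengths for all members, Map1lc3b stood at 24.4 ± 0.0892 FPKM in WT and 24.7 ± 0.552 FPKM in the libraries labelled Fyco1-/- (SD, n = 3 each). It then passed Gabarapl2, at 1.05 to 1.11 times its level within a library, and held 10.7% of the WT total instead of 6.7%. With merged exon lengths, 7517 bases for Map1lc3b, its WT level was 8.22 FPKM and Map1lc3a stood above it, at 1.04 to 1.3 times its level. Gabarapl1 and Gabarap remained the top pair, in that order, under all 3 lengths. The WT share of Gabarapl1 was 44.6% with coding and 52% with merged lengths, and its difference between genotypes was 5.7 points under each. A change of length scales all libraries alike, so the ratio of a gene between genotypes stays the same.

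Reads of other genes could enter these values, or reads of the members could be lost from them, in a few places. Gabarapl1 shares 570 exon bases with 1700101I11Rik on the opposite strand, in 2 stretches of chromosome 6, from 129533160 to 129533536 (377 bases, of which 90 are coding in Gabarapl1) and from 129533551 to 129533743. How strand was handled in the counting is not given in the sources used here, so reads of this pair cannot be told apart there. 1700101I11Rik stood at 10.7, 11.9 and 10.8 FPKM in WT and 12.4, 13.6 and 13.7 FPKM in the libraries labelled Fyco1-/-, a log2 difference of 0.24 (SE 0.07) that was not called (limma, adjusted p = 0.0638). Per 1000000 scaling fragments, Gabarapl1 differed by 46.8 fragments between genotypes and 1700101I11Rik by 1.87. Both values may hold or leave out fragments over the shared bases, so they do not bound what the overlap adds. Its part in the Gabarapl1 values was not tested. Map1lc3b shares 58 exon bases with Zcchc14, which was not called (4.99 and 4.49 FPKM, limma, adjusted p = 0.37). Processed pseudogenes at least 95% identical over at least 100 bases of coding sequence were found for Gabarapl2 (Gm3724, Gm5829 and Gm6051) and Map1lc3b (Gm12727, Gm5612, Gm6054 and Gm6055), so values of these members are less certain. Of these, Gm6054 and Gm6055 are in the table, at no more than 0.395 and 0.418 FPKM in any library. Reads that fit both a member and such a copy could have been left out of both values, which was not tested. The low values of the copies therefore do not show how far they are transcribed. Levels and shares of Map1lc3b and Gabarapl2 could be too low for the same reason. No such copy was found for Gabarapl1, Gabarap or Map1lc3a.

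None of the 11 genes that prepare and attach ATG8 proteins was called, and their median log2 difference was -0.01, beside -0.04 over all tested genes. With 8.43% of all tested genes called, 0 of 11 is near the background. The list holds the ATG4 proteases, the activating enzyme ATG7, the transfer enzymes ATG3 and ATG10, and ATG12, ATG5 and the ATG16L proteins, which direct the attachment to membranes. Their log2 differences ran from -0.17 to 0.22. The top of that range was Atg3, at 16.8 ± 1.41 FPKM in WT and 19.6 ± 2.2 FPKM in the libraries labelled Fyco1-/- (SD, n = 3 each; limma, unadjusted p = 0.0383, adjusted p = 0.177). It was the only gene of the 11 with an unadjusted limma p under 0.05. Atg4b, the protease with the broadest action on the family, was at 7.06 and 6.77 FPKM, and Atg12 at 20.9 and 19.6 FPKM. These and Atg3 are named after their values were seen.

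Among cargo receptors, which bind ATG8 proteins and what is to be degraded, 4 of 21 tested genes rose and none fell (limma; 3 were lower at an unadjusted p under 0.05). Of all tested genes, 3.42% rose. The receptors' median log2 difference was -0.07, 7 of the 21 were positive, and the groups did not overlap in 11, where 29.7% of all tested genes had no overlap. The 24 genes of the list were matched except Calcoco2, and Stbd1 and Ccpg1 were too low to test. Earlier results of these data were known when this list was chosen, so its direction is not independent evidence.

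Sqstm1, which encodes the receptor p62 for ubiquitin-tagged cargo, stood at 41.5, 43.1 and 42.3 FPKM in WT and 66.4, 59.2 and 59.7 FPKM in the libraries labelled Fyco1-/-. The log2 difference was 0.54, a ratio of 1.46 (limma, adjusted p = 0.000228). Optn, which encodes optineurin, a receptor for ubiquitin-tagged mitochondria and bacteria, stood at 23.3, 25.8 and 22.6 FPKM against 30.1, 33.8 and 34.4 FPKM (log2 0.44, limma, adjusted p = 0.00354). The groups of both genes did not overlap.

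Tex264, a receptor for the endoplasmic reticulum, stood at 37.7, 36.9 and 35.4 FPKM in WT and 44.4, 44.2 and 43.5 FPKM in the libraries labelled Fyco1-/- (log2 0.26, limma, adjusted p = 0.00597). Tax1bp1, a receptor for ubiquitin-tagged aggregates and pathogens, stood at 27, 27.9 and 25.8 FPKM against 31.7, 32.2 and 32.2 FPKM (log2 0.25, limma, adjusted p = 0.0127). In both genes every library labelled Fyco1-/- stood above every WT library. Receptors without a call included Nbr1, a relative of Sqstm1 (30.3 and 30.4 FPKM), and the mitochondrial receptors Bnip3 (38.9 and 32.5 FPKM, limma, adjusted p = 0.0558) and Bnip3l (90.6 and 83.4 FPKM, limma, adjusted p = 0.085), all 3 named after their values were seen.

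Of 23 tested genes for transport, tethering and initiation proteins that bind ATG8 proteins or FYCO1, 1 rose and none fell (limma). At an unadjusted limma p under 0.05, 1 was lower, and the median log2 difference was -0.02. The 23 include Fyco1 itself, the gene named in the genotype label, which was not called. Of all tested genes, 3.42% rose, so 1 of 23 is near the background. The gene that rose was Trp53inp2, whose protein DOR binds GABARAP proteins and helps form autophagosomes, at 2.87, 3.14 and 2.03 FPKM in WT and 3.97, 4.52 and 4.36 FPKM in the libraries labelled Fyco1-/-. The log2 difference was 0.60 (SE 0.13, limma, adjusted p = 0.022). Without Fyco1-/- B the log2 difference was 0.57 (limma, adjusted p = 0.077), without Fyco1-/- C it was 0.59 (0.0671), and with all libraries and no filter on low values it was 0.60 (0.0739), so the call was lost while the size stayed about the same. Rab7, the GTPase of late endosomes that FYCO1 binds, was at 34.7 and 36.1 FPKM. Plekhm1, which tethers lysosomes to autophagosomes, was at 4.17 and 5.14 FPKM (limma, adjusted p = 0.211). Neither was called, and both are named after their values were seen.

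Of 11 tested transcription factors known to act on autophagy genes, 1 fell and none rose (limma). At an unadjusted limma p under 0.05, 2 were lower, the called gene among them, and none was higher. The median log2 difference was -0.11, and 2 of the 11 were positive. Of all tested genes, 5.02% fell. The gene that fell was Nfe2l2, which encodes NRF2, the factor that drives antioxidant genes and Sqstm1. It stood at 7.33, 6.88 and 6.61 FPKM in WT and 5.55, 5.07 and 4.59 FPKM in the libraries labelled Fyco1-/- (log2 -0.42, SE 0.09, limma, adjusted p = 0.0156). The call was lost without WT A (log2 -0.38, limma, adjusted p = 0.0643), WT B (-0.42, 0.052) or Fyco1-/- C (-0.36, 0.0562). Tfeb, a main activator of lysosome and autophagy genes, was at 5.46 and 5.98 FPKM (limma, adjusted p = 0.516), and Foxo3, which acts on ATG8 genes in muscle, at 4.95 and 4.29 FPKM (limma, adjusted p = 0.249). Neither was called, and both are named after their values were seen.

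**Figure D4:**
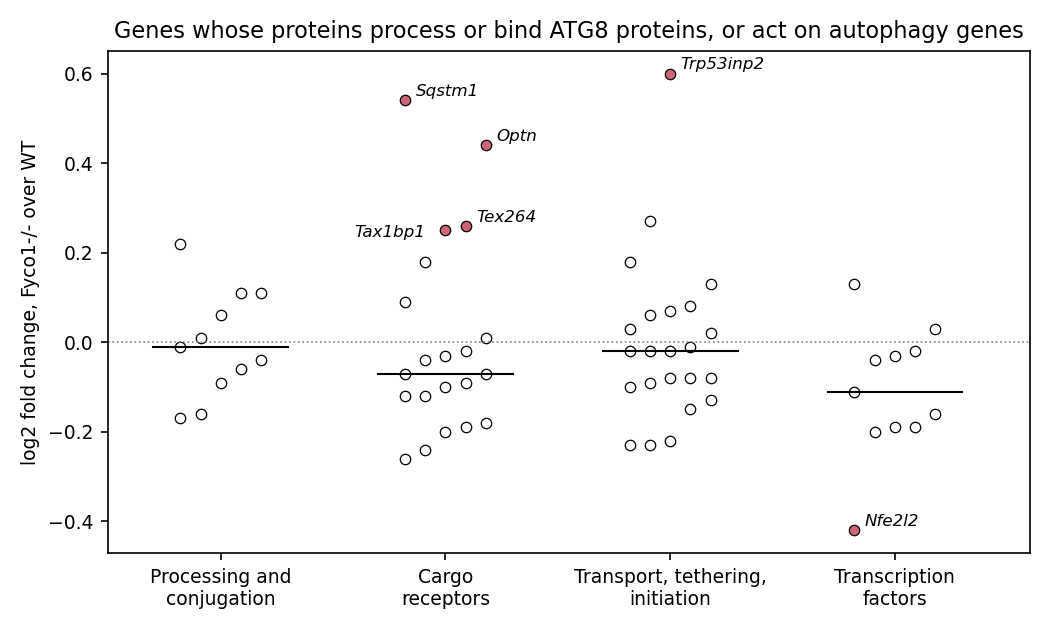
Log2 difference, libraries labelled Fyco1-/- over WT, of each tested gene in 4 lists. Their proteins process or bind ATG8 proteins, bind FYCO1 or act on autophagy genes. Filled points are called and named, open points are not, and bars are list medians, which lie between -0.11 and -0.01.

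The genes whose log2 values followed those of Gabarapl1 most closely over the 6 libraries, among 10944 genes compared, were Chst10, Arih2, Ttc1, Gpr137b and Samd8. Their root mean square difference from its centred profile was 0.013 for Chst10, 0.025 for Arih2, 0.032 for Ttc1 and 0.035 for both Gpr137b and Samd8, on the log2 scale. Chst10, a sulfotransferase, was the lowest of them, at 1.26 and 1.7 FPKM, and was not called (limma, adjusted p = 0.11). The log2 values were taken after adding 0.5 FPKM, which shrinks the changes of low genes such as Chst10. The log2 difference of 0.32 for Chst10 is therefore understated, and its first place depends on this scale. Its likeness to Gabarapl1 without the added 0.5 FPKM was not tested. Gpr137b, a lysosomal membrane protein, was at 67.1 and 84.4 FPKM (limma, adjusted p = 0.000764). Arih2, a ubiquitin ligase, was at 12.6 and 15.9 FPKM (limma, adjusted p = 0.00515). These 5 were picked for their likeness, so their profiles are a description.

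The tissue label was checked against marker genes of each cell type. Summed lens fibre markers were 137900 to 142000 FPKM in WT and 139100 to 144300 FPKM in the libraries labelled Fyco1-/-. Cryaa alone had means of 116000 and 120000 FPKM, so this sum mostly follows 1 gene. Of the 13 fibre markers, 2 rose and 3 fell, beside 3.42% and 5.02% of all tested genes. The largest fall was that of Bfsp2, a beaded filament protein of the fibre cell, by 4.26 on the log2 scale (limma, adjusted p = 0.000141). Summed lens epithelium markers were 568.4 to 628.3 FPKM in WT and 479.4 to 509.3 FPKM in the libraries labelled Fyco1-/-, without overlap. The largest parts of this sum were Sfrp1 (means of 285 and 244 FPKM) and Foxe3 (133 and 98.1 FPKM). Of 9 tested epithelium markers, 5 fell, beside the same 5.02%. In bulk tissue, fewer cells of a type and less RNA per cell cannot be told apart. Markers of blood (78.22 to 185.4 FPKM in WT and 98.63 to 238.7 FPKM in the others) and of vessels (38.87 to 55.89 and 39.87 to 42.42 FPKM) were present in every library, with overlap between the genotypes. Those of retina and neurons, pigment epithelium, macrophages and cornea summed to no more than 7.744 FPKM in any library. Muscle and fibroblast markers summed to 7.911 to 29.39 FPKM in WT and 3.696 to 5.301 FPKM in the libraries labelled Fyco1-/-, without overlap. The highest sum was that of WT B, where Acta1 was at 21.7 FPKM, against 4.61 FPKM in WT A and 3.49 FPKM in WT C. No gene of these lists beyond the lens was called (limma), beside 8.43% of all tested genes. Only 9 vessel, 6 muscle and fibroblast, 4 blood, 4 macrophage, 2 retina and neuron, 1 pigment epithelium and 1 cornea gene were tested. The absence of calls among so few genes says little. At an unadjusted limma p under 0.05, 3 muscle and fibroblast genes and 1 vessel gene were lower. No list gene was at 0 in all libraries. The part of the lower epithelial, Bfsp2 and muscle values in the ATG8 values was not tested.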

How the data were processed

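Total RNA of 6 lens pools was sequenced as paired reads of 100 bases. Per the submitters' processing notes, reads were aligned with STAR 2.5 to GRCm38/mm10 and counted with HTSeq 0.6.1. The authors deposited FPKM per library. The log2 fold changes, p-values and adjusted p-values in the same table are the authors' deposited DESeq2 output. Annotation, strand handling and the scaling total are not given in the sources used here.

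The test was limma (version 3.58.1, R version 4.3.3), fitted to log2(FPKM + 0.5) for the 12001 genes whose mean over all libraries reached 0.5 FPKM. Genotype was the single term, moderation was robust with a trend, tests were two-sided, and a gene was called when its p, after Benjamini-Hochberg adjustment over these genes, was under 0.05. Fold changes on this scale understate those of low genes. Replicates are separate lens pools per the labels.

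Library totals and lengths were recovered from the steps of FPKM values: a gene's length is the smallest that makes all 6 values whole fragments within 0.001. They serve for counting error, the length choices and the fragments per 1000000 of Gabarapl1 and 1700101I11Rik only, and no count test was run. Of 32749 values of 1 to 20 fragments computed with merged exon lengths of GENCODE M21, 16645 (50.8%) lay within 0.05 of a whole number, against 10% by chance. In M21, 93.3% of table symbols matched. The coding end of 1 member is not reported here. In simulated data with known changes, 2.43% of calls were false and 98% of 4-fold changes were recovered.

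The members, gene lists and named genes were chosen with earlier results of these data known. Named are the members, Fyco1, up to 4 called genes by p in each of 4 lists, and the 5 genes most like Gabarapl1, the member with the largest change, with predicted and clone names left out; others are marked as named after their values were seen. Retreg1, Nipsnap2, Kbtbd6 and Adgre1 were found under older symbols. Alternatives were other pseudocounts, filters, moderation and scalings, a replicate block and each library left out; other lengths were added after the data were seen.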

Additional observations from a re-analysis of the deposited data

How the results depend on the processing

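Each member's log2 difference was recomputed under 16 alternatives, and Gabarapl1 was called in 16 of 16, with log2 0.29 to 0.37 and limma adjusted p of 0.000552 to 0.00577. The other 4 were called in 0 of 16, between -0.17 and 0.06. The sign of Gabarap turned with quantile normalization (-0.03) and TPM (-0.01), and leaving out single libraries gave -0.03 to 0.02. Gabarapl2 gave 0 and -0.01 under the same scalings, and -0.01 to 0.03 without single libraries. Map1lc3b gave 0 to 0.03 when single libraries were left out. Calls over all genes were 568 without the low filter and 611 to 870 without 1 library (614 without WT A, 611 without WT B, 670 without Fyco1-/- B, 641 without Fyco1-/- C), against 1012. Median-of-ratios scaling made 57% of calls higher instead of 40.5%. The median of all genes stayed between -0.07 and 0 throughout.

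In the transport list, 1 call became 0 without the low filter and 2 with quantile normalization and median-of-ratios scaling, and 0 to 1 without single libraries. In the transcription factor list, it was 0 to 2 without single libraries. The share of Gabarapl1 in WT was 44.6% with coding and 52% with merged lengths, added after seeing the data. Letters did not pair libraries: deviations of same-lettered libraries correlated at -0.03 to 0.03. With the letter as a replicate block Gabarapl1 gave log2 0.32 (limma, adjusted p = 0.00565) and all genes 929 calls. Where a call was lost, the cause was not tested. Counting error of about 6.76% limits Map1lc3a. Changes of 1.25-fold were recovered in 18% of simulated cases, drawn from all tested genes and not from the members alone. Fewer genes were changed in the simulation than were called in the data.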
